A study of Harpegnathos saltator with 27 samples.

Results

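The genes described here stood lower in the abdominal fat body of ants given a juvenile hormone analog than in the fat body of ants given solvent or ecdysteroid, while the solvent and ecdysteroid values overlapped. They are called the JHA-low genes below. A gene was taken when the highest of its 3 JHA values lay below all 6 values with solvent and 20E, its solvent mean was at least 2 CPM (a gene's counts scaled to 1000000 gene counts in its library), its solvent mean was at least 1.5 times its JHA mean with 0.5 CPM added to each, and the solvent and 20E values overlapped. This rule found 115 of 20659 identifiers, under the ceiling of 200, so no gene that met it was left out. The genes were thus chosen by their measured fat body levels in all 3 groups, so the fat body values of these genes are a description and carry no test. The brain and ovary libraries played no part in the choice, but the sample titles do not say whether the tissues share ants.

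The libraries came from workers of the ant Harpegnathos saltator, whose abdomens were injected 12 hours before dissection. Methoprene, a stable mimic of juvenile hormone (JHA), and 20-hydroxyecdysone (20E), the active insect ecdysteroid, were each given at 500 ng, and control ants received about 1 µL of buffer with 10% ethanol, the solvent (EtOH). Poly(A) RNA was sequenced from abdominal fat body, ovary and non-visual brain, and each tissue has 9 libraries, 3 per treatment, from 3 individual ants per the series' design. All groups received the carrier buffer, so none was left uninjected, and the labels give no strain or age.

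Juvenile hormone and ecdysteroids are the main lipid-soluble hormones of insects. Juvenile hormone acts through the intracellular receptor Met and the transcription factor Kr-h1, and 20E through the nuclear receptors EcR and Usp. The fat body corresponds in function to liver and adipose tissue: it stores fat and glycogen, secretes most proteins of the haemolymph, and in many insects makes the yolk protein vitellogenin under the control of these hormones. In Harpegnathos, workers can become reproductives as adults, and hormone levels shift during that change. The count table gives each gene as an identifier, and 0 of the 20659 identifiers matched the RefSeq table of 14329 annotated genes. The function of the JHA-low genes is therefore not stated, the tissue labels were not checked against named markers, and no sequence is shown.

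Fat body libraries held 13.1 to 21.6 M gene counts (M, 1000000 counts), brain libraries 8.74 to 13.4 M and ovary libraries 9.74 to 17.4 M. On the first principal component the 3 fat body JHA libraries lay at 17.0 to 40.6 and the other 6 at -20.4 to -5.55. In brain, EtOH replicate 3 and JHA replicate 1 stood apart, at 37.9 and 40.2 against -26.1 to 0.233 for the other 7. In ovary, JHA replicate 1 stood apart at 73.4, and 20E replicate 3, at 21.6, lay far from the other 20E libraries at -28.1 and -22.7. Results in brain and ovary are given with these libraries and, where it matters, without them.

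Together the JHA-low genes took 2.29 to 2.98% of fat body gene counts with solvent, 2.22 to 3.55% with 20E and 0.765 to 0.926% with JHA. In brain the same genes took 1.11 to 1.17% of gene counts with solvent, 1.12 to 1.19% with 20E and 1.06, 1.07 and 1.08% in the 3 JHA libraries, which were the lowest of the 9. HSALG004435.2 was the most abundant of these genes in fat body but not in brain. Without it, the brain JHA libraries were lowest too, at 1.05 to 1.07% against 1.10 to 1.17% in the other 6. In brain HSALG001172.1, for example, stood at 710 to 931 CPM with solvent, against 130 to 204 CPM for HSALG004435.2. Shares without the genes most abundant in brain were not computed. In ovary the share was 1.11 to 1.13% with solvent, 1.04 to 1.32% with 20E and 1.01 to 1.16% with JHA, and the treatments overlapped. In bulk tissue, fewer cells of a type and less RNA per cell cannot be told apart. Genes enriched in fat body over both other tissues took 41.0 to 43.1% of fat body counts with solvent, 36.6 to 45.4% with 20E and 32.5 to 46.6% with JHA, so their share overlapped among treatments. Genes enriched in brain took 0.137 to 0.261% and genes enriched in ovary 0.165 to 0.317% of fat body counts, also with overlap among the treatments.

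**Figure D1:**
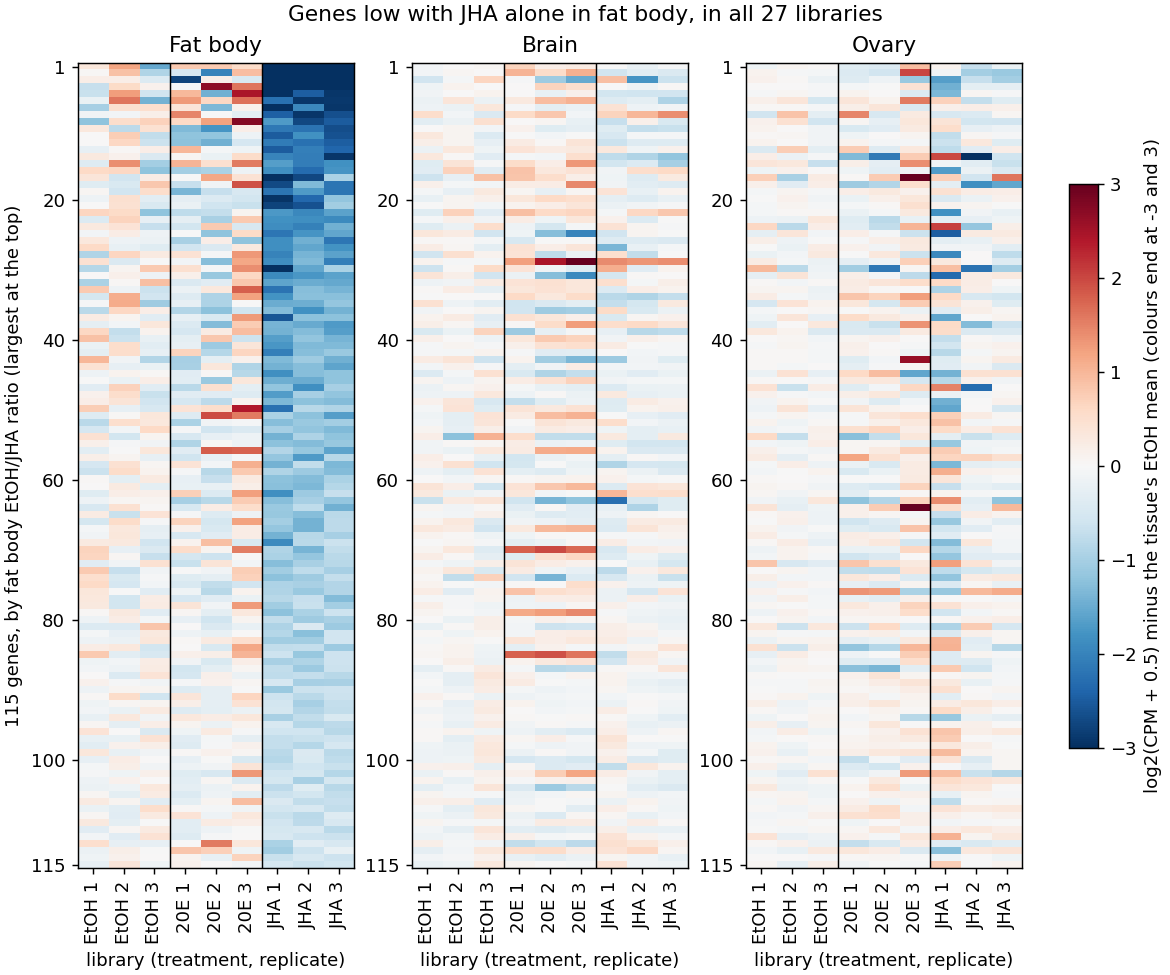
Each row is 1 of the 115 JHA-low genes, ordered by its fat body EtOH/JHA ratio, and each column is 1 of 27 libraries; colour is log2(CPM + 0.5) minus the solvent mean of the same tissue. The 3 fat body JHA columns are blue throughout by the rule, the brain 20E columns hold a few red rows, and single ovary libraries (20E 3, JHA 1) differ from the others.

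The size of the fat body difference varied widely among the genes. The EtOH/JHA ratio ran from 1.51 to 20.2 with a median of 2.27, and it was under 2 for 41 genes, from 2 to under 4 for 54, from 4 to under 8 for 14 and 8 or more for 6. Solvent levels spanned 2.04 to 8175 CPM, with 25 genes under 10 CPM, 61 from 10 to under 100, 26 from 100 upward but below the 3 most abundant. Counts behind the JHA values ran from 3 to 89756, and 7 genes had a count under 10 in at least 1 JHA library.

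The gene with the largest ratio was HSALG000622.2. Its fat body values were 326, 586 and 88.6 CPM with solvent, 440, 446 and 374 CPM with 20E, and 12.5, 15.7 and 19.9 CPM with JHA. The 3 JHA libraries lay close together, whereas the solvent libraries differed more than 6-fold among themselves. In brain the gene stood at 67.7 ± 3.63 CPM with solvent and 63.4 ± 5.13 CPM with JHA (mean ± SD, n = 3), and the JHA and solvent values overlapped. In ovary it stood at 37.8 ± 2.84 and 32.3 ± 8.85 CPM, again with overlap.

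HSALG009450.1, with the second largest ratio of 15.2, had fat body values of 397, 710 and 205 CPM with solvent, 272, 96.0 and 733 CPM with 20E, and 19.1, 28.4 and 37.6 CPM with JHA. The levels with solvent and with 20E were both scattered, and the JHA values all lay below the lowest of them. It is 1 of 5 JHA-low genes that were at least 8-fold higher in fat body than in both other tissues.

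The 2 most abundant genes were HSALG004435.2 and HSALG002466.2, both among those 5. HSALG004435.2 stood at 9768, 8794 and 5964 CPM with solvent, 8323, 7004 and 11790 CPM with 20E and 2019, 1889 and 1064 CPM with JHA. HSALG002466.2 stood at 5056, 9749 and 7244 CPM with solvent, 5111, 8230 and 10174 CPM with 20E and 3277, 4165 and 2613 CPM with JHA. HSALG004435.2 was 4.93 times lower with JHA than with solvent, and HSALG002466.2 was 2.19 times lower. Without HSALG004435.2, the JHA-low genes still took 1.46 to 2.10% of counts with solvent and 0.613 to 0.737% with JHA.

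At the edge of the rule, HSALG011452.2 was taken with a ratio of 1.51 and HSALG010299.2 was left out with a ratio of 1.48. The former stood at 43.6 ± 10.6 CPM with solvent and 28.8 ± 1.46 with JHA (SD, n = 3), and the latter at 29.7 ± 4.31 and 19.9 ± 1.08 CPM, so that the boundary separates nearly equal genes. Of the 8197 genes with at least 2 CPM with solvent, 194 (2.37%) had every JHA value below all 6 others, and 162 met every condition but the ratio.

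**Figure D2:**
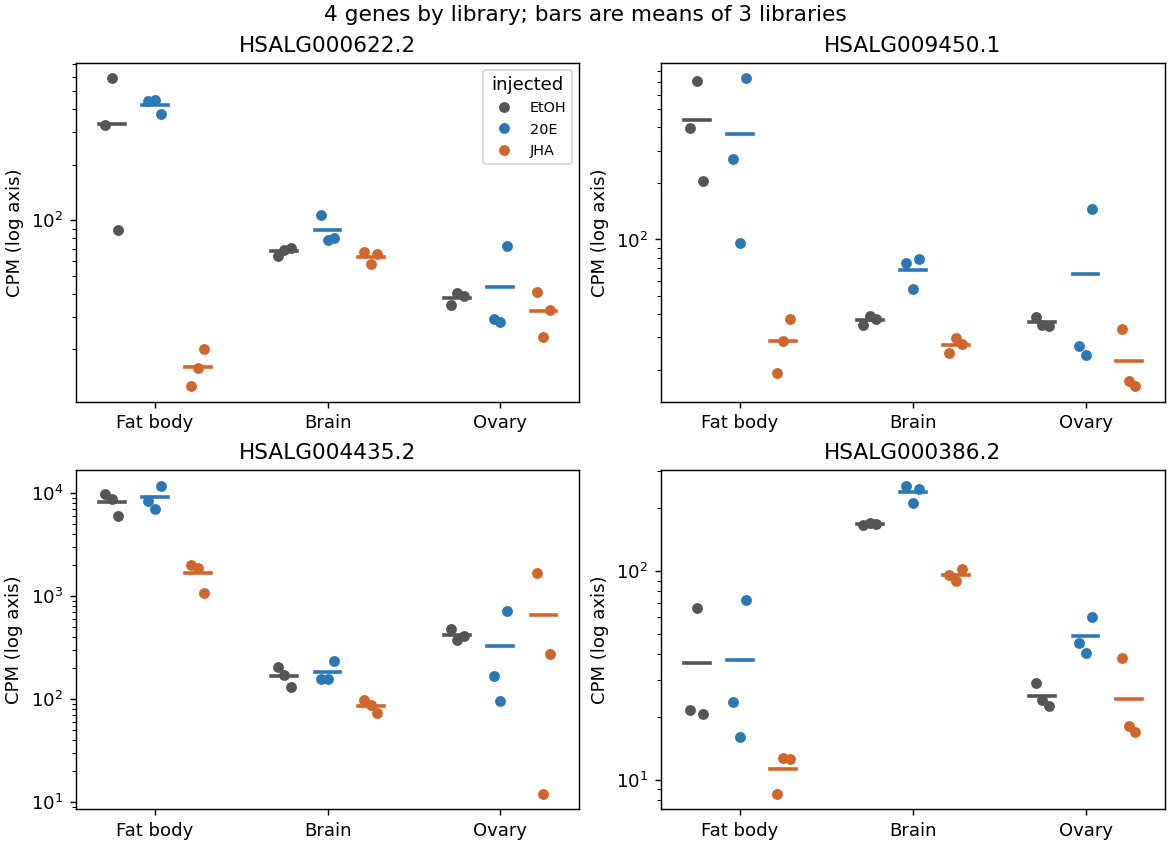
CPM on a log axis for 4 genes in 3 tissues, 1 point per library and a bar at the mean of 3 libraries. The JHA points of HSALG000622.2 lie below the others in fat body and overlap solvent in brain and ovary, while those of HSALG000386.2, with a mean of 95.9 CPM, lie below the solvent mean of 169 CPM in brain.

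The 20E values lay on both sides of solvent. The 20E mean was above the solvent mean for 51 of the 115 genes, more than 1.5 times above it for 14 and below it by more than that factor for 10, and the median 20E/EtOH ratio was 0.961. The fitted log2 difference was below 0 for 74 of the 115 genes, against 51.0% of all genes, with a median of -0.13, and without 20E replicate 3 for 84 of 115 with a median of -0.23. The overlap was required by the rule, so these values are a description. Among the 20E libraries, replicate 3 was the highest for 75 of the 115 genes, with a median log2 deviation from the 20E mean of 0.34 for the JHA-low genes and 0.07 for all genes of at least 2 CPM. Solvent replicates shared the highest values more evenly, at 32, 47 and 36 genes. The median coefficient of variation of the JHA-low genes was 31.0% with solvent and 35.7% with 20E, against 21.2 and 17.9% over the 8197 genes of at least 2 CPM, and it was 19.4% with JHA against 17.9%. All 3 groups enter the rule, so this comparison with other genes is partly set by the choice of the genes.

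A fit of all 9870 fat body genes (edgeR's quasi-likelihood test, Benjamini-Hochberg adjusted p under 0.05) called 20 of the 115 genes lower with JHA than with solvent, where 0.648% of all genes were called lower. It called 7 lower with JHA than with 20E, where 0.476% of all genes were, and 5 genes were in both lists. Fitted log2 differences from solvent were -4.51 for HSALG000622.2, -4.06 for HSALG009450.1 and -2.40 for HSALG004435.2. The rule used these contrasts, so these calls are no test of the genes and nothing is read from the counts. The calls changed with 1 library left out. Without JHA replicate 1, 2 or 3 they were 0, 2 and 0 against solvent and 0, 1 and 0 against 20E. Without EtOH replicate 1 or 2 there were 7 and 5 against solvent. With another library left out they reached 30 against solvent and 12 against 20E. These counts stand without the share of all genes in the same fits, so the changes are not read as particular to the JHA-low genes. Between 20E and solvent edgeR called 0 of the 115 and 1.01% of all genes. An unadjusted p under 0.05 was reached there by 5 genes lower and 4 higher, where 14.2% of all genes reached it, and DESeq2 called 1. The rule required solvent and 20E values to overlap, which favours few calls, so nothing is read from these counts either.

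The genes were present well beyond fat body. With solvent, 109 of the 115 averaged at least 2 CPM in brain and 107 in ovary, and each had counts in both. The highest solvent level was in fat body for 35 genes, in brain for 37 and in ovary for 43. That put 30.4% of the JHA-low genes highest in fat body, against 13.6% of all 8197 genes with a fat body mean of at least 2 CPM. The rule set a floor on the fat body level and required it to exceed the JHA level, so this share is given without a test. A restriction to fat body of at least 8-fold was rare, with 5 of 115 genes (4.35%) against 2.71% of all genes. The other 2 of these 5 genes were HSALG006861.1 and HSALG002460.2, and the latter stood at 464 ± 106 CPM in fat body, 38.3 ± 16.8 in brain and 15.6 ± 1.69 in ovary with solvent.

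Some JHA-low genes carried consecutive identifier numbers. There were 6 such runs that held 16 of the 115 genes, and the longest had 5. For 68 of the genes the identifier with the next number was in the table at 2 CPM or more in fat body, and in 10 cases (14.7%) it was a JHA-low gene too, where JHA-low genes made up 1.40% of all genes at that level. The runs were examined after the values were seen. The sources used here do not say whether consecutive numbers mean neighbouring or related genes, and reads of near-identical or overlapping genes may be split between their identifiers.

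The longest run went from HSALG009447.1 to HSALG009451.2. HSALG009447.1 had fat body values of 5.39, 2.47 and 2.06 CPM with solvent, 4.25, 4.59 and 18.3 CPM with 20E and 0.248, 1.48 and 1.39 CPM with JHA. HSALG009449.2 had 20.6, 11.4 and 10.5 CPM with solvent, 8.86, 9.82 and 16.6 CPM with 20E and 3.41, 4.27 and 3.53 CPM with JHA. Solvent means of the 5 genes ran from 3.31 to 437 CPM, and all JHA values lay below both other groups, by the rule. In 20E replicate 3 each of the 5 was at its highest among the 20E libraries. The identifier before the run, HSALG009446.1, was also lowest with JHA, at 110, 68.4 and 81.2 CPM. It was left out because its 20E values, 122, 143 and 179 CPM, did not overlap those with solvent, 302, 204 and 259 CPM. HSALG009452.2, after the run, showed no such order, at 14.0 CPM with solvent and 14.2 CPM with JHA.

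**Figure D3:**
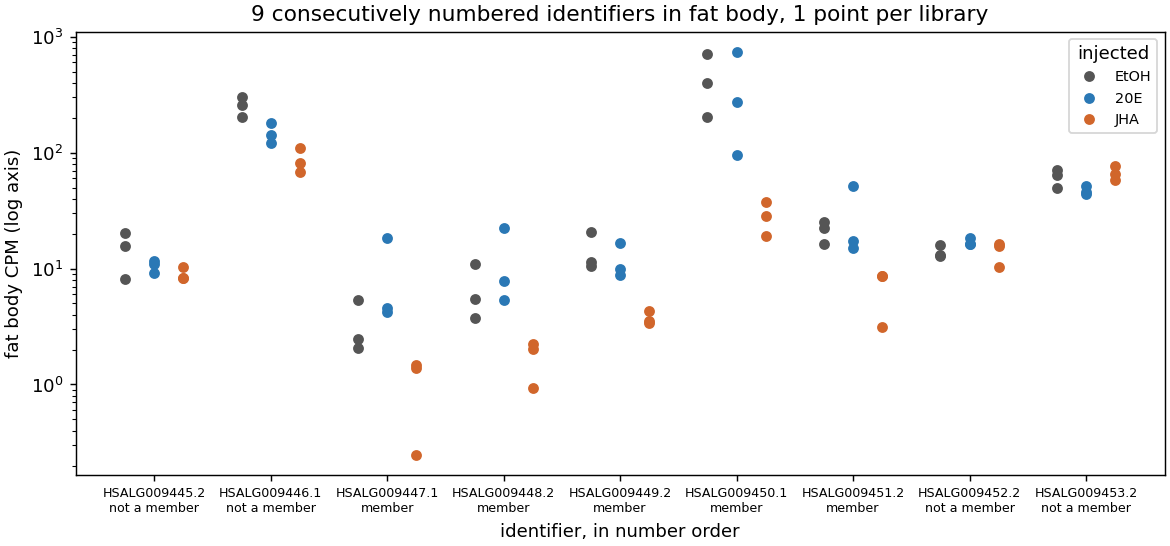
Fat body CPM on a log axis for 9 consecutively numbered identifiers, 1 point per library, coloured by treatment. The 5 JHA-low genes in the middle have all JHA points below the solvent and 20E points, and HSALG009452.2 and HSALG009453.2 do not.

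The brain libraries asked whether the genes were also lower with JHA in a tissue that the rule did not use. For most of them the difference there was small: the fitted log2 difference between JHA and solvent was below 0 for 78 of the 113 genes tested, against 51.1% of all 12379 genes tested, with a median of -0.08 for the JHA-low genes and -0.01 for all. The lower and upper quartiles of the JHA-low genes lay at -0.21 and 0.02. With edgeR's adjusted p, 0 of the 113 genes and 0% of all genes passed. An unadjusted p under 0.05 was reached by 10 lower and 3 higher genes, where 1.87% of all genes were lower and 1.35% higher at that level. Of the genes, 3 were called by DESeq2 and 2 by limma voom (with weights per library), in each case as lower, where DESeq2 called 0.242% and limma voom 0.267% of all genes.

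The order that defined the genes in fat body appeared in brain in 10 of the 109 genes with at least 2 CPM (9.17%), whose 3 JHA values all lay below the 6 values with solvent and 20E. Of all 11083 brain genes at that level, 1.25% had this order. The opposite order, with JHA above all 6, was seen in 1 of the 109 genes and 1.06% of all genes. Without the 2 brain libraries that stood apart, 18 of 109 genes (16.5%) had JHA below all others, against 7.17% of all genes, and without JHA replicate 1 alone 16 genes did, against 4.50% of all genes. Against solvent alone, 13 of 109 genes had every JHA value below and 3 had every one above, where 3.66% and 2.50% of all genes did.

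Genes with large fat body ratios made up most of the 10. Of the 17 genes with a ratio of at least 4 and enough counts in brain, 8 (47.1%) had JHA below all 6 other values, and of the 92 with a smaller ratio 2 did (2.17%). Without the 2 libraries that stood apart these were 8 of 17 and 10 of 92 genes. The split at a ratio of 4 was chosen after the values were seen, and the difference between the classes was not tested. Over the 113 genes, the fat body and brain log2 differences between JHA and solvent had a Pearson r of 0.17 and a Spearman rho of 0.27, over genes that share the same libraries in each tissue. Fat body and ovary gave an r of 0.38 and a rho of 0.39 over 112 genes. Brain and ovary, which the rule did not use, gave an r of -0.01 and a rho of 0.04 over 111 genes.

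**Figure D4:**
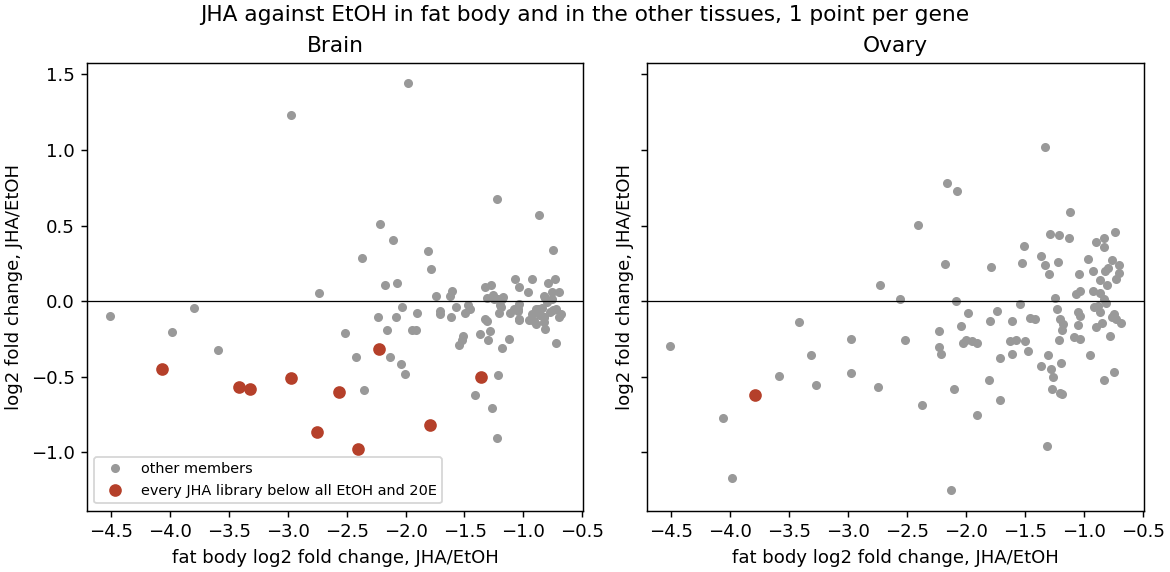
Fitted log2 fold change of JHA against EtOH in fat body (x axis) and in brain or ovary (y axis), 1 point per JHA-low gene. Red points are genes with every JHA library below all EtOH and 20E libraries, 10 in brain and 1 in ovary.

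HSALG000386.2 had the smallest p for JHA against solvent in brain. Its values there were 167, 170 and 169 CPM with solvent, 257, 211 and 247 CPM with 20E, and 95.7, 89.7 and 102 CPM with JHA. The 3 groups did not overlap, and the JHA libraries were lowest. The log2 difference between JHA and solvent was -0.82 (SE 0.12, adjusted p = 0.27) and did not pass over all genes, and it passed in 2 of 16 alternative fits. Against 20E the difference was -1.32 (SE 0.12, adjusted p = 0.00128), which passed in 16 of 16 alternative fits. In fat body the gene was less abundant than in brain, with 36.1 ± 26.2 CPM with solvent and 11.2 ± 2.32 CPM with JHA (SD, n = 3).

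HSALG004435.2, the most abundant JHA-low gene of fat body, was also in this group. In brain it stood at 204, 169 and 130 CPM with solvent, 158, 157 and 234 CPM with 20E and 97.5, 87.7 and 72.5 CPM with JHA. The JHA values did not overlap the others, and the log2 difference from solvent was -0.98 (SE 0.21, adjusted p = 0.522). Genes enriched in fat body took 0.826 to 1.20% of brain counts with solvent, 0.830 to 1.05% with 20E and 0.597 to 1.32% with JHA. These ranges overlapped, and in fat body the gene itself was lower with JHA. The part of fat body RNA in the brain level of the gene was not tested.

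In the opposite direction, HSALG001338.2 had the smallest p among genes higher in brain with JHA. It stood at 497, 352 and 375 CPM with solvent and 810, 575 and 584 CPM with JHA (log2 difference 0.68, SE 0.19, adjusted p = 1, passed in 0 of 16 alternative fits). In fat body the same gene was at 245 ± 49.2 CPM with solvent and 110 ± 41.9 CPM with JHA (SD, n = 3).

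**Figure D5:**
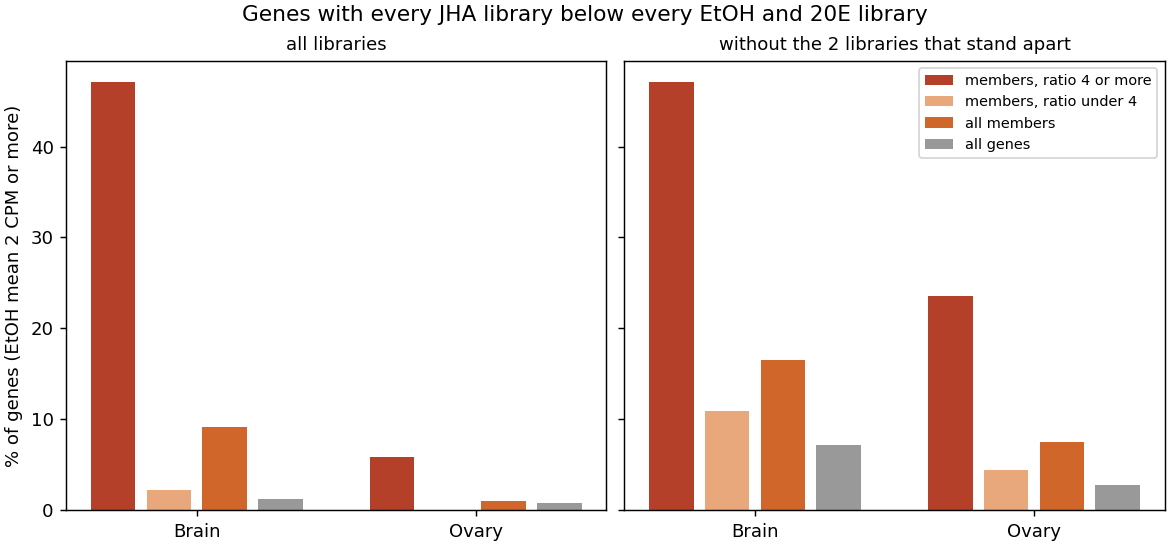
Bars give the percentage of genes with at least 2 CPM whose every JHA library lay below every EtOH and 20E library, for JHA-low genes with a fat body ratio of 4 or more, under 4, all JHA-low genes and all genes of the tissue. In brain 9.17% of the JHA-low genes and 1.25% of all genes had this order in all libraries; in ovary the shares were 0.935% and 0.760%.

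Between the 2 hormones in brain, 8 of the 113 genes were called lower with JHA than with 20E and 1 higher, where 1.52% and 0.670% of all genes were. The total of 9 was 5 without 20E replicate 2 or 3 or without any 1 JHA library and 17 without 20E replicate 1. These totals stand without the share of all genes in the same fits. The fitted difference was below 0 for 66 of the 113 genes, against 47.6% of all genes, with a median of -0.08 for the JHA-low genes and 0.01 for all. The gene with the smallest p was HSALG001896.2, at 22.5, 21.3 and 20.4 CPM with JHA, 51.9, 56.1 and 64.0 CPM with 20E and 24.8, 23.1 and 22.0 CPM with solvent. In this gene the 20E libraries were high and the JHA and solvent values overlapped. The log2 difference of -1.43 (SE 0.12, adjusted p = 0.00128) passed in 16 of 16 alternative fits. HSALG006527.2 was the 1 gene higher with JHA than with 20E in brain (1.08, SE 0.20, adjusted p = 0.0239), at 9.30 ± 1.16 against 4.35 ± 0.437 CPM, a call that passed in 10 of 16 alternative fits.

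With 20E, 5 of the genes rose in brain relative to solvent and 0 fell, where 1.35% of all genes were called higher and 0.517% lower. The count was 1, 3 and 2 without EtOH replicate 1, 2 or 3, 3 without 20E replicate 2 and 12 without 20E replicate 1. The share of all genes in these fits is not given, so the changes are not read as particular to the JHA-low genes. These 5 genes, given in full because they are few, were HSALG001896.2, HSALG004451.2, HSALG022022.1, HSALG011895.2 and HSALG009450.1. HSALG001896.2 rose by a log2 difference of 1.31 (SE 0.12, adjusted p = 0.00125). HSALG004451.2 rose from 151, 178 and 110 CPM to 500, 570 and 478 CPM (1.81, SE 0.25, adjusted p = 0.00867), with the JHA libraries at 103, 167 and 158 CPM. HSALG022022.1 rose from 20.9 ± 2.09 to 72.0 ± 7.82 CPM (SD, n = 3; log2 difference 1.79, SE 0.26, edgeR adjusted p = 0.0121). In all of these the 20E libraries lay above the solvent libraries in brain, whereas in fat body 20E and solvent overlapped by the rule.

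HSALG009450.1 rose in brain from 34.9, 38.7 and 37.2 CPM with solvent to 74.8, 54.0 and 78.1 CPM with 20E (0.91, SE 0.16, adjusted p = 0.027, passed in 9 of 16 alternative fits), and stood at 24.5, 29.5 and 27.4 CPM with JHA. The 3 treatments did not overlap. HSALG011895.2 was at 6.09, 5.45 and 5.32 CPM with solvent, 13.8, 32.8 and 55.8 CPM with 20E and 15.7, 14.8 and 15.5 CPM with JHA. It rose with 20E (2.60, SE 0.42, adjusted p = 0.0195, passed in 10 of 16 alternative fits), and its JHA values also lay above all solvent values (1.44, SE 0.41, adjusted p = 1), the reverse of its order in fat body. The lists of 5 and 8 genes share the 20E libraries, and 4 genes were in both, which is 80% of the first and 50% of the second. Among genes lower with 20E in brain, HSALG003989.1 had the smallest p (-0.76, SE 0.20, adjusted p = 0.106) and did not pass.

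In ovary edgeR called 0 JHA-low genes in each of the 3 comparisons, where 0% of all 11418 genes passed. Between JHA and solvent, 73 of the 112 genes tested had a fitted log2 difference below 0, against 48.0% of all genes, with a median of -0.13 for the JHA-low genes and 0.02 for all. The spread of this median over the 3 JHA libraries was 0.12 (SD), so it differed from 0 by about the spread between libraries. Without JHA replicate 1 the median was -0.05. At an unadjusted p under 0.05 there were 3 lower and 0 higher genes, where 1.39% and 2.12% of all genes were, and DESeq2 and limma voom called 0.

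The fat body order was seen in ovary in 1 of 107 genes (0.935%) with JHA below all 6 other values, against 0.760% of all genes. That gene, HSALG001561.2, stood at 144 ± 2.24 CPM with solvent, 159 ± 32.3 with 20E and 96.2 ± 37.7 with JHA (SD, n = 3). Its JHA values were 52.8, 117 and 119 CPM, the lowest in replicate 1, which stood apart. Without the 2 ovary libraries that stood apart, 8 of 107 genes (7.48%) had the order, against 2.72% of all genes. These were 4 of 17 genes with a fat body ratio of at least 4 and 4 of 90 with a smaller one, and with all libraries the median fitted log2 difference between JHA and solvent in ovary was -0.33 and -0.10 in these classes. Against solvent alone, 13 of 107 genes had every JHA value below and 8 every one above, where 5.68% and 12.1% of all genes did.

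HSALG002460.2 had the smallest p for JHA in ovary, at 17.1, 15.9 and 13.8 CPM with solvent and 4.60, 9.48 and 7.39 CPM with JHA (-1.17, SE 0.35, adjusted p = 0.825). These groups did not overlap, but the difference did not pass in any of 16 alternative fits. With 20E the gene stood at 11.8, 13.9 and 6.97 CPM, which overlapped the JHA values. HSALG017387.1 had the smallest p among higher genes, at 9.55 ± 0.735 CPM with solvent and 13.1 ± 1.15 CPM with JHA (SD, n = 3; log2 difference 0.39, SE 0.19, adjusted p = 0.825). It was the 1 gene of the 107 with JHA above all 6 other values, an order seen in 1.64% of all genes.

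Between the hormones in ovary, 78 of the 112 genes had a fitted log2 difference below 0 (JHA lower), against 49.2% of all genes, with a median of -0.16 and a spread over the 3 JHA libraries of 0.15 (SD). An unadjusted p under 0.05 was reached by 4 lower and 1 higher genes, where 1.73% and 2.49% of all genes were, and limma voom called 1. HSALG000386.2 had the smallest p, at 38.2, 18.0 and 16.8 CPM with JHA and 45.4, 40.4 and 60.1 CPM with 20E (-1.03, SE 0.29, adjusted p = 0.834). It was also the gene with the smallest p for 20E above solvent (0.90, SE 0.29, adjusted p = 1), with solvent libraries at 29.1, 24.0 and 22.5 CPM, below all 20E libraries. HSALG006316.2 had the smallest p in the other direction, at 27.8, 33.6 and 33.2 CPM with solvent, 12.9, 11.9 and 25.3 CPM with 20E and 54.2, 20.8 and 29.8 CPM with JHA. Its log2 difference was 1.04 between JHA and 20E (SE 0.36, adjusted p = 0.969) and -0.97 between 20E and solvent (SE 0.36, adjusted p = 1). For 20E against solvent, 2 lower and 4 higher genes had an unadjusted p under 0.05, where 1.35% and 1.05% of all genes did. DESeq2 called 0 and limma voom called 5. The limma voom counts in ovary stand without the share of all genes, so nothing is read from them.

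In ovary, single libraries differed strongly from the rest for some of the genes most abundant in fat body. HSALG004435.2 stood at 480, 374 and 410 CPM with solvent, 166, 96.6 and 709 CPM with 20E and 1659, 12.1 and 276 CPM with JHA. Its fitted log2 difference between JHA and solvent was 0.51 (SE 1.24) and was -1.57 without JHA replicate 1. HSALG002466.2 was at 76.3 CPM in 20E replicate 3 and at 5.67 to 14.1 CPM in the other 8 ovary libraries. Genes enriched in fat body took 1.68% of counts in ovary 20E replicate 3 and 1.42% in JHA replicate 1, against 0.796 to 1.05% in the other 7, and their part in these levels was not tested.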

How the data were processed

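The authors deposited whole-number counts per gene. The submitters' processing notes name HTSeq, STAR 2.5.3a and Trimmomatic. The sources used here give neither the genome build and annotation nor the strand setting. The 5 HTSeq summary lines stayed out of library sizes and tests; in fat body, reads outside genes took 26.2 to 32.2% of a library's total and reads aligned to several places 14.3 to 18.5%. CPM divides a count by its library's gene counts. Counts were tested per tissue over 9 libraries with edgeR 4.0.16 in R 4.3.3 (TMM, filterByExpr, robust quasi-likelihood fit, no replicate block) on 9870 fat body, 12379 brain and 11418 ovary genes, with Benjamini-Hochberg adjusted p under 0.05. The 115 genes all passed the filter in fat body, 113 in brain and 112 in ovary. Standard errors follow from the F statistic. Fits were tested on simulated data. No replicate pair agreed within sampling noise (lowest chi-square per degree of freedom 7.94). Within a tissue, libraries come from separate ants per the series' design, so p-values measure the spread between ants. Alternatives used DESeq2 1.42.0 and limma 3.58.1. The gene list, rule and tests were chosen with earlier results of these data known. The hormone response and marker lists could not be applied to unnamed identifiers. Named in fat body were the 2 genes with the largest ratio, the 2 most abundant and the 2 at the threshold; in brain and ovary, per comparison and direction, up to 2 that passed with the smallest adjusted p or, with none, the 1 with the smallest p. Genes named for their order, run or count were chosen after their values were seen.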

Additional observations from a re-analysis of the deposited data

Results flagged for a closer look

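HSALG001338.2 differed in opposite directions in fat body and brain: every JHA library lay below every solvent library in fat body (log2 difference -1.22) and above every one in brain (0.68). So it was for HSALG011895.2 in fat body (-1.98) and brain (1.44). HSALG017387.1 did so in fat body (-0.90) and ovary (0.39). Of the genes with at least 2 CPM, 3 of 109 in brain and 8 of 107 in ovary had every JHA value above every solvent value. Of all genes at that level, 2.50% in brain and 12.1% in ovary had this order. The fat body direction of all of them was set by the choice of the genes, and the differences between tissues were not tested.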

How the results depend on the processing

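The number of genes that met the rule was 74 with a ratio of at least 2 and 112 to 199 with 1 library left out. It was 142 with TMM library sizes, 103 of them among the 115. Fat body calls among the 115 genes were 84 (JHA against EtOH), 68 (JHA against 20E) and 1 (20E against EtOH) with DESeq2, which called 6.32, 5.46 and 5.31% of all genes, and ran from 0 to 30, 0 to 12 and 0 to 2 with 1 library left out. Brain calls were 3, 20 and 13 with DESeq2 and 2, 41 and 27 with limma voom for JHA against EtOH, JHA against 20E and 20E against EtOH, where DESeq2 called 0.242, 4.82 and 4.52% and limma voom 0.267, 13.7 and 12.7% of all genes, and the reported fit 0, 2.19 and 1.87%. With 1 library left out they were 0 throughout, 5 to 17 and 1 to 12. Ovary calls were 1 (JHA against 20E) and 5 (20E against EtOH) with limma voom, and 1 and 6 without the 2 libraries that stood apart. These ovary calls, and all calls with 1 library left out, stand without the share of all genes, and nothing is read from them.

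With the replicate block, 10 genes were called in fat body for JHA against EtOH, and 5 (JHA against 20E) and 3 (20E against EtOH) in brain. The block moved no other count by over 1.5 times. The share of all genes in these fits is not given, so nothing is read from the counts. The labels do not say that equal numbers pair ants: deviations of same-numbered libraries correlated from -0.555 to 0.445, and the best match had the same number in 2 of 18 cases in fat body, 3 of 18 in brain and 6 of 18 in ovary.

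Genes with JHA below all others ran from 10 to 16 in brain (1.38 to 4.50% of all genes) and from 1 to 8 in ovary (0.961 to 2.72%) with 1 library left out, and were 18 (7.17%) and 8 (2.72%) without the libraries that stood apart. The median log2 difference in brain was -0.048 (JHA against EtOH) and 0.059 (20E against EtOH) with limma voom, and -0.10 (JHA against 20E) and 0.087 (20E against EtOH) without the libraries that stood apart. In ovary it was 0.092 for 20E against EtOH with no filter. With 1 library left out, the brain medians ran from -0.09 to -0.05 (JHA against EtOH), -0.11 to -0.079 (JHA against 20E) and -0.010 to 0.081 (20E against EtOH), and the ovary medians from -0.19 to -0.05, -0.25 to -0.11 and 0.01 to 0.05. The causes were not tested. Of the 27 combinations of gene and comparison recomputed, 1 changed direction: HSALG004435.2 in ovary for JHA against EtOH, from 0.51 to -0.69 with the replicate block, -2.60 with limma voom, -1.57 without JHA replicate 1 (up to 1.08 with another library left out) and -1.57 without the 2 libraries that stood apart.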
